A study of Mus musculus with 18 samples.

Results

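The RNAs described here are small nucleolar RNAs (snoRNAs), Cajal body RNAs (scaRNAs), spliceosomal and other small nuclear RNAs (snRNAs), the ribosomal RNA precursor and the RNAs of RNase MRP and RNase P, none of which encodes a protein. They were chosen by symbol, as the rows named Snora or Snord with a number, Scarna, or Rnu with a number, together with Rn45s, Rmrp and Rpph1. This gave 127 members among 24035 named genes. The class was taken from the start of the symbol alone. It gave 74 box C/D snoRNAs (Snord), 36 box H/ACA snoRNAs (Snora), 9 scaRNAs (Scarna) and 5 snRNAs (Rnu). The 7SK RNA Rn7sk was asked for by the same choice and is not analysed here. Their levels come from cortical neurons of embryos of the mouse strain C57BL/6. In utero electroporation on embryonic day 14 brought in an MTOR construct with the substitution C1483Y, with the substitution L2427P, or without a substitution (WT), and on embryonic day 18 the cells that had taken it up were isolated by flow sorting. All groups therefore carried a construct, on top of the embryo's own Mtor. The sources used here give neither the promoter of the construct nor the number of embryos behind a library. Each construct had 3 ribosome footprint libraries and 3 mRNA libraries, and 17 of the 18 libraries were used, without footprint library C1483Y replicate 3, whose values are displaced against the gene names. Nothing in the labels says that libraries of a group came from separate litters or animals, so p-values measure only the spread between these libraries, which may be technical.

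Footprints are the RNA fragments left after RNase I has digested everything that ribosomes or other bound proteins do not shield. Ribosomes do not translate snoRNAs, and these RNAs live in the nucleus as stable particles with proteins. Box C/D snoRNAs guide 2'-O-methylation and box H/ACA snoRNAs guide pseudouridylation of ribosomal RNA, in particles with the methyltransferase fibrillarin and the pseudouridine synthase dyskerin, while scaRNAs guide the same changes on spliceosomal RNAs. Most vertebrate snoRNAs are cut from the introns of other genes, called hosts. RNase MRP takes part in the cutting of the ribosomal RNA precursor, and RNase P removes the leader of tRNA precursors. Rnu11 and Rnu12 are the U11 and U12 RNAs of the minor spliceosome.

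A box H/ACA RNA ends with the letters ACA a few bases before its 3' end. RefSeq places a microRNA hairpin over 7 members, and for these the hairpin's sequence was at hand (RefSeq, GRCm38.p6). The 4 hairpins with ACA in their last 7 bases are shown, and those over Snora34, Snora36b and Snord33 are not. They are printed 5' to 3' with the last ACA in capitals, because reads from such a stretch could be counted for the member, for the microRNA or for neither.
Scarna13, hairpin Mir3069, chr12:105031077-105031141, minus strand: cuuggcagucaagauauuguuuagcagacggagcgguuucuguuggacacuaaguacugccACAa
Scarna3a, hairpin Mir1843b, chr1:159340358-159340423, plus strand: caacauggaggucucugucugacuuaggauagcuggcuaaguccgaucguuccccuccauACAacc
Scarna3b, hairpin Mir1843a, chr12:80391613-80391677, minus strand: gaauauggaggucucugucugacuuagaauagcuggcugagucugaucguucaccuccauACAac
Snora19, hairpin Mir3084-2, chr19:60774329-60774397, minus strand: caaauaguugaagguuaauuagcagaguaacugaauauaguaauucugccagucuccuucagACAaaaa
The last ACA lay 3 bases before the annotated end of Scarna13, 4 before that of Scarna3a, 1 before that of Scarna3b and 3 before that of Snora19. The hairpin over Snora36b, not shown, runs past that member's annotated end, and its last ACA lay 1 base before that end. Of all 1005 RefSeq mouse hairpins, 12.1% held ACA in their last 7 bases, as did 4 of the 7 hairpins that overlap a member. The hairpin covered 65 of the 275 bases of Scarna13 and all 56 bases of Snora19. Snora19 had no count in any of the 17 libraries, and the rows of Mir3069, Mir1843b and Mir3084-2 had 0 counts as well.

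Of the counts on named genes, members took up 3.38% to 10.4% in footprints and 2.41% to 12.1% in mRNA. The mean share was 6.45% ± 2.34 (SD, n = 8) in footprints and 4.36% ± 3.02 (SD, n = 9) in mRNA. The highest mRNA share was that of L2427P replicate 3, which also had counts on the fewest genes, 3173, and without it the mRNA mean was 3.39%. The footprint libraries held 7695442 to 34094913 counts and the mRNA libraries 18627076 to 53283035. The deepest footprint library, WT replicate 3, holds only multiples of 3, and its depth is uncertain. Markers of projection neurons summed to 7535 to 12059 CPM in footprints and 4368 to 7162 CPM in mRNA, while the erythroid markers Hbb-bs and Hba-a1 were at 0 in all libraries and the third, Alas2, reached 16.7 CPM in footprints and 26.4 CPM in mRNA. The 4 microglial markers summed to 79.5 to 245 CPM in footprints and 26.4 to 253 CPM in mRNA, and the 4 progenitor markers to 153 to 467 CPM in footprints and 7.30 to 348 CPM in mRNA. The lists of interneurons, astrocytes, the oligodendrocyte lineage and endothelium reached at most 222 CPM in footprints and 552 CPM in mRNA. The part of these cells in the results was not tested. CPM stands for the counts of a gene scaled to a library total of 1e+06 counts on named genes.

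**Figure D1:**
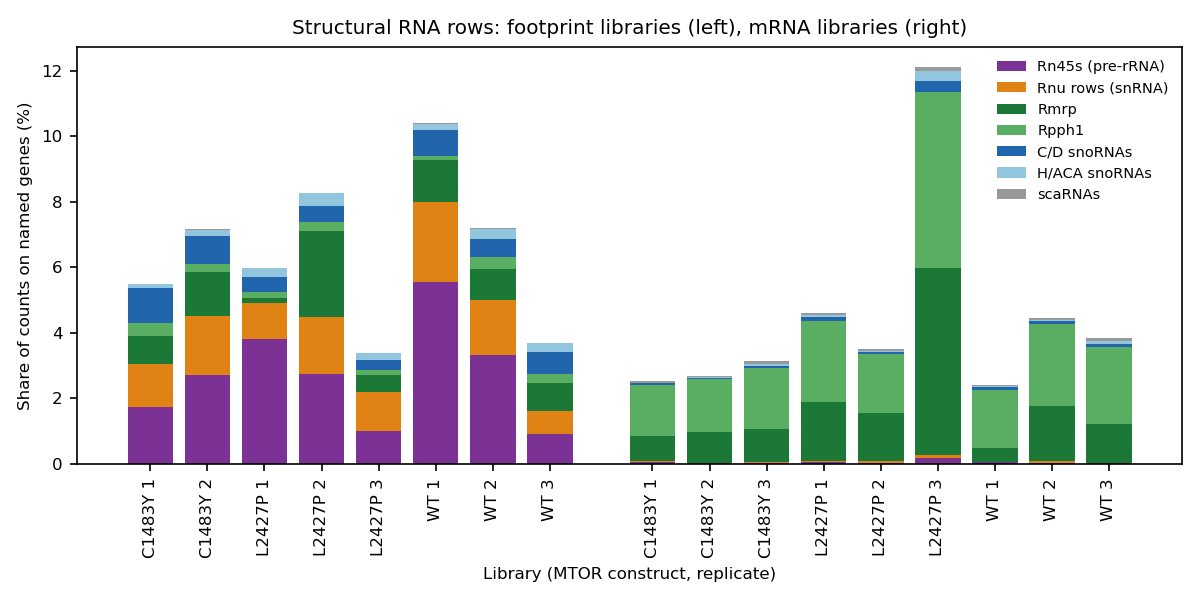
Share of each library's counts on named genes taken by the members, as stacked bars by class, with the 8 footprint libraries on the left and the 9 mRNA libraries on the right. Rn45s and the Rnu rows are prominent in the footprint bars and barely visible in the mRNA bars, which are filled by Rmrp and Rpph1 and reach 12.1% in L2427P replicate 3.

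A few members held most of these counts. Rn45s, Rnu11, Rmrp and Rpph1 together made up 74.4% to 90.4% of the member counts in footprint libraries and 92.9% to 96.1% in mRNA libraries. The leading member was Rn45s in 7 of the 8 footprint libraries and Rnu11 in L2427P replicate 3, and it was Rpph1 in 8 of the 9 mRNA libraries and Rmrp in L2427P replicate 3. Below these, levels were patchy: of 2159 member values in the 17 libraries, 1428 were 0, 153 were 1 to 9 counts, 62 were 10 to 99 and 516 were 100 or more. In footprints 15 members had counts in all 8 libraries, 73 in some and 39 in none. In mRNA 7 members had counts in all 9 libraries, 91 in some and 29 in none. Only Rmrp, Rn45s, Rnu12 and Rpph1 had counts in all 17. A total of 20 members had no count in any of the 17 libraries, among them the U6 RNA row Rnu6, the U7 RNA row Rnu7, the U8 RNA row Snord118 and the Snord116 rows. Several of these have near-identical copies in the genome, and a 0 is uncertain for them, because reads without a unique alignment were 21.9% to 29.6% of all reads in the files of the footprint libraries used, where these have a summary, and 50.0% to 77.5% in mRNA files.

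The first comparison asks which members stood higher in footprints than in mRNA of neurons with the same constructs. Of the 127 members, 83 passed the filter on low counts. The 44 others were the 20 without counts and 24 with few. Against mRNA and averaged over the constructs, 13 members were higher in footprints and 5 were lower (edgeR quasi-likelihood test, adjusted p below 0.05 over 11902 genes), where 2.2% of all genes tested were higher and 0.79% lower, 2.99% in either direction. DESeq2 called 24 members higher and 14 lower, with 20.6% of all genes called. The median fitted log2 ratio was 1.05 over the 83 members and -0.21 over all genes tested. Of the 18 called members, 9 were at 0 in at least 1 whole group of libraries and 9 had counts in all 6 groups. Fitted ratios of members at 0 in a group depend on the prior count, and the medians of the log2 ratio of mean levels, with 1 CPM added to each, were 0.43 and -0.24. A member that passed the filter through 1 assay alone had to differ, so these counts describe the members and support nothing further. Of the 46 box C/D snoRNAs tested 8 were higher and 2 lower, of the 23 box H/ACA snoRNAs 4 were higher and 0 lower, and of the 9 scaRNAs 0 were higher and 2 lower. Neither of the 2 snRNAs tested passed. Every footprint library lay above every mRNA library for 6 members, Rn45s, Rnu11, Snora3, Snord104, Snord57 and Snord69, as for 0.941% of all genes tested, and below every mRNA library for Rpph1 alone, as for 1.06%. Within single constructs, 2 members were higher and 1 lower in C1483Y (0.0756% and 0.042% of all genes), 1 and 1 in L2427P (0.151% and 0.134%), and 2 and 2 in WT (0.126% and 0.202%), with Snord69 higher and Rpph1 lower in each. Since the samples are bulk RNA, fewer cells that hold an RNA and less of it per cell cannot be told apart.

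**Figure D2:**
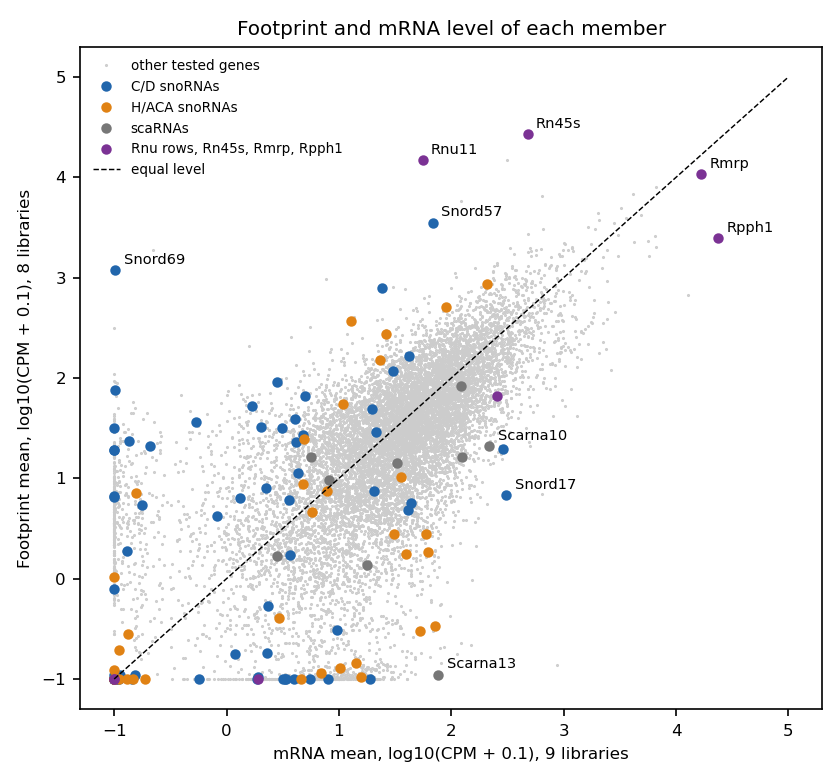
Mean footprint level against mean mRNA level on log10(CPM + 0.1) axes, with 1 point a gene, the members coloured by class and the other genes tested in grey. Members spread to both sides of the dashed line of equal level, with Rn45s, Rnu11, Snord57 and Snord69 far above it and Rpph1, Snord17, Scarna10 and Scarna13 below it.

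Rn45s, the precursor of the 18S, 5.8S and 28S ribosomal RNAs, was the most abundant member in footprints. Its footprint level ranged from 8955 to 55594 CPM with a median of 27249, against 110 to 1701 CPM with a median of 346 in mRNA. The lowest footprint library was above the highest mRNA library, and the means stood at 27209 ± 15557 CPM (SD, n = 8) in footprints and 479 ± 481 CPM (SD, n = 9) in mRNA, a ratio of 56.8. The fitted log2 ratio was 6.53 with a standard error of 0.67 (edgeR adjusted p = 0.000157). The gene is multi-copy and its transcript also spans the mature ribosomal RNAs, which cannot be told apart from the precursor here. Rnu11, which with U12 recognises minor introns, followed at 14875 ± 5368 CPM (SD, n = 8) in footprints and 55.5 ± 56.7 CPM (SD, n = 9) in mRNA. Its lowest, median and highest footprint values were 6956, 14845 and 24341 CPM, against 0, 73.6 and 147 CPM in mRNA. All 8 footprint libraries lay above all 9 mRNA libraries, but the edgeR adjusted p was 0.0713. In mRNA, 4 of the 9 libraries held 0 or 1 count, and without mRNA library C1483Y replicate 1 the adjusted p was 0.0181. The median of Rnu12 was 26.2 CPM in footprints and 159 CPM in mRNA, and the ranges overlapped (edgeR adjusted p = 0.668).

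The RNAs of the 2 related ribonucleases differed from each other. Rpph1, the RNA of RNase P, at chr14:50807447-50807771, had 1119 to 3990 CPM with a median of 2570 in footprints, against 15693 to 53981 CPM with a median of 18779 in mRNA. No footprint library reached the lowest mRNA library. Rpph1 was lower in footprints by a log2 ratio of -2.73 with a standard error of 0.14 (edgeR adjusted p = 1.00e-75), and it was the only member below mRNA in every library. Its adjusted p varied over many orders of magnitude between 26 other settings, and it passed in each. The same direction passed within each construct, with log2 ratios of -1.93 in C1483Y, -3.46 in L2427P and -2.80 in WT (edgeR). The call in C1483Y was lost without footprint library WT replicate 1 or mRNA library L2427P replicate 3. It was also lost by DESeq2, with library sizes without the members, with replicate number as a block and with the displaced library included. With the displaced library the calls in L2427P and WT were lost as well. Rmrp, the RNA of RNase MRP, at chr4:43492785-43493059, had 1716 to 26236 CPM with a median of 9004 in footprints, against 4282 to 57085 CPM with a median of 11937 in mRNA. The Rmrp ranges overlapped, and the log2 ratio was 0.10 with a standard error of 0.49 (edgeR adjusted p = 1.00). That sign changed with the scaling, to -0.33 where TMM factors were set within each assay, so no direction is given for Rmrp.

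**Figure D3:**
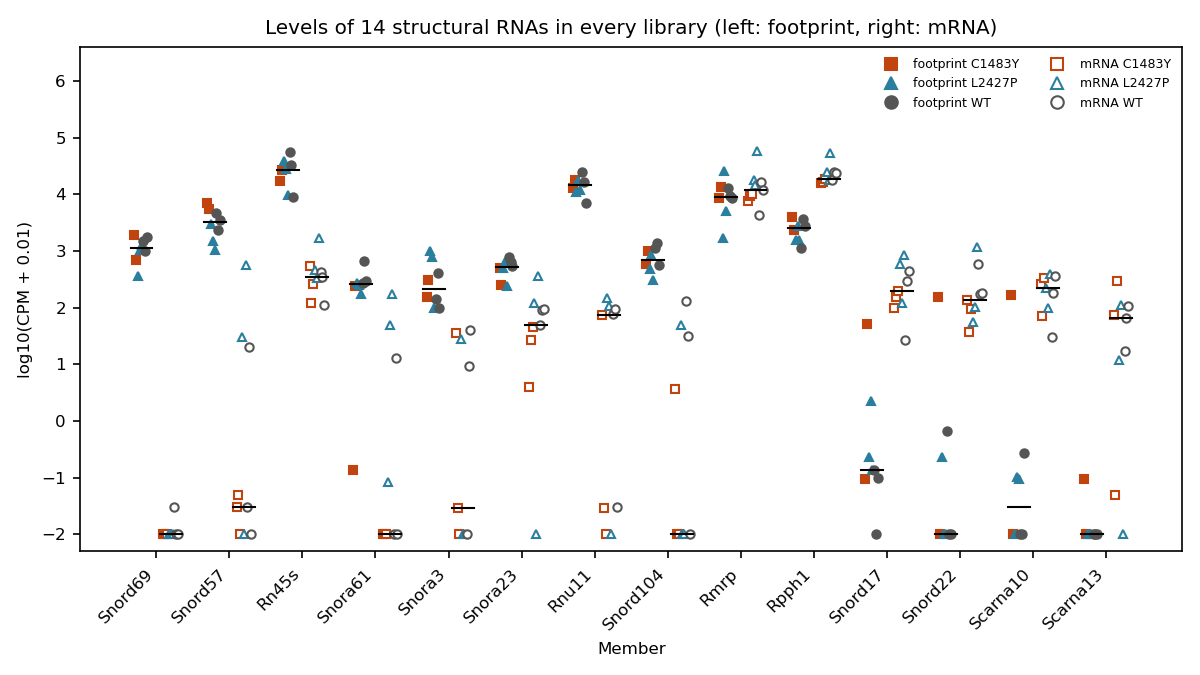
Level of 14 members in every library as log10(CPM + 0.01), with filled symbols for footprints on the left of each pair, open symbols for mRNA on the right, and a line at the median. Snord69, Snord57, Rn45s and Rnu11 have footprint values above all their mRNA values, Rpph1 has footprint values below all of its mRNA values, and the patchy members reach the floor of the axis, which stands for 0 counts.

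Among the box C/D snoRNAs, Snord57 was the highest in footprints. The RefSeq table gives spans without strand or exons, so a member is placed here in a host gene's span and not in an intron or exon. Snord57 lies in the span of Nop56, the gene of a core protein of the C/D particle, at chr2:130278026-130278088 (GRCm38). Snord57 had 1033 to 6940 CPM with a median of 3219 in footprints, against 0 to 569 CPM with a median of 0.0200 in mRNA. All footprint values lay above all mRNA values (edgeR adjusted p = 0.0164). Of its mRNA counts, L2427P replicate 3 held 11927. The adjusted p of Snord57 rose to 0.0577, 0.0631 and 0.0662 without mRNA library C1483Y replicate 1, 2 and 3. Snord69, within the span of Gnl3 at chr14:31014293-31014351, had 357 to 1893 CPM with a median of 1152 in footprints, and 1 count in 1 of the 9 mRNA libraries (edgeR adjusted p = 8.35e-92). With 1 count in mRNA, Snord69 passed the filter through footprints alone, so its direction was set beforehand and no fold is given for it. Its neighbour in Gnl3, Snord19, had 0 to 214 CPM with a median of 38.5 in footprints. Snord19 again had 1 count in mRNA (edgeR adjusted p = 0.000301), and the same limit holds for it. Gnl3 itself, which encodes nucleostemin, had 61.7 ± 87.8 CPM (SD, n = 8) in footprints and 18.3 ± 25.3 CPM (SD, n = 9) in mRNA (edgeR adjusted p = 0.321). Snord66 was counted in 5 of 8 footprint libraries, up to 74.0 CPM, and was at 0 in all 9 mRNA libraries (edgeR adjusted p = 0.0129). Snord66 therefore passed the filter through footprints alone and had to be higher there, so its p-value supports nothing further. Against a floor of 3 counts a library in mRNA, its mean was at least 217-fold higher in footprints, and the call was lost without footprint library C1483Y replicate 2 (adjusted p = 1.00). Snord52, counted in 7 footprint libraries with a median of 66.4 CPM, had counts in 2 mRNA libraries, the higher at 24.5 CPM (edgeR adjusted p = 0.00195). Snord104 lay above mRNA in every library, with 310 to 1377 CPM in footprints and 0 to 131 CPM in mRNA, but did not pass (edgeR adjusted p = 0.154). Snord37, Snord85 and Snord95 also passed, and they are named because they complete the list of calls, a choice made after their values were seen. Each was counted in only some footprint libraries. In mRNA Snord37 was at 0 throughout and Snord95 had 8 counts, so both passed the filter through footprints alone. Of 26 other settings Snord85 passed in 24, Snord37 in 13 and Snord95 in 7.

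Going the other way, Snord17 and Snord22 were lower in footprints. Snord17, in Snx5, had 0 to 50.7 CPM with a median of 0.128 in footprints, against 27.3 to 844 CPM with a median of 193 in mRNA (edgeR adjusted p = 0.00128). A single footprint library, C1483Y replicate 2, reached into the mRNA range. Snord22, in the non-coding host Snhg1, had 0 to 157 CPM with a median of 0 in footprints, against 37.4 to 1203 CPM with a median of 139 in mRNA (edgeR adjusted p = 0.00319). Its single high footprint library was C1483Y replicate 1. Without footprint library C1483Y replicate 2 the adjusted p of Snord22 was 0.0630. Snord15a had means of 5.54 CPM in footprints and 43.5 CPM in mRNA and did not pass (edgeR adjusted p = 0.285). The non-coding host genes of snoRNAs, a list of 20 of which 14 were tested, had Gas5 higher in footprints and no gene lower. Among all genes tested, 2.2% were higher and 0.79% lower. Gas5 had 1170 ± 683 CPM in footprints (SD, n = 8) and 236 ± 114 CPM in mRNA (SD, n = 9), with a log2 ratio of 2.67 and a standard error of 0.45 (edgeR adjusted p = 7.49e-07), and the median log2 ratio of mean levels with 1 CPM added was -2.99 over the 14, against -0.24 over all genes tested.

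Of the box H/ACA snoRNAs, Snora23, Snora3, Snora61 and Snora65 passed by edgeR, all higher in footprints. The class as a whole did not lean that way. Of 24 that reached 1 CPM in either assay, 9 had the higher mean in footprints and 15 in mRNA. Their median log2 ratio of mean levels, with 1 CPM added to each, was -1.64. DESeq2, which called 20.6% of all genes, also called Snora16a, Snora28, Snora30, Snora33, Snora44 and Snora7a lower in footprints. Snora23, in the importin gene Ipo7, had 241 to 771 CPM with a median of 526 in footprints, against 0 to 367 CPM with a median of 50.1 in mRNA, so the ranges met. Its log2 ratio was 3.45 with a standard error of 0.74 (edgeR adjusted p = 0.000437). Snora3, in the ribosomal protein gene Rpl27a, had 98.3 to 986 CPM in footprints and 0 to 41.2 CPM in mRNA, without overlap (edgeR adjusted p = 0.00151). Its call was lost without footprint library WT replicate 1, footprint library C1483Y replicate 1 or mRNA library L2427P replicate 3 (adjusted p = 0.108, 0.153 and 0.285). Snora65, in Rpl12, had 0.127 to 279 CPM in footprints and 0 to 91.1 CPM in mRNA (edgeR adjusted p = 0.0110). Without footprint library C1483Y replicate 2 or mRNA library WT replicate 3 it missed the threshold (adjusted p = 0.406 and 0.0507). Snora81, in the translation factor gene Eif4a2, was the most abundant H/ACA snoRNA in footprints, with 320 to 1438 CPM and a median of 910, against 0 to 833 CPM and a median of 117 in mRNA, and did not pass (edgeR adjusted p = 0.321). It passed without mRNA library C1483Y replicate 3 or L2427P replicate 2 (adjusted p = 0.00330 and 0.00422). Snora61 and 3 other members, Snora44, Snora16a and Snord99, lie in the same host, Snhg12, and Snord99 had too few counts to be tested. Snora61 had a median of 259.7 CPM in footprints and 0 in mRNA (edgeR adjusted p = 1.96e-06). It had counts in 4 mRNA libraries, its means were 273 CPM in footprints and 26.2 CPM in mRNA, and the ranges overlapped. Snora44, in contrast, had a median of 0.0210 CPM in footprints and 51.9 CPM in mRNA (edgeR adjusted p = 0.110). Snora16a had a median of 0 CPM in footprints and 38.2 CPM in mRNA (edgeR adjusted p = 0.140). The difference between members of 1 host was not tested.

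Among the scaRNAs, Scarna10 and Scarna13 were lower in footprints. Scarna10, a guide of spliceosomal RNA modification, had 0 to 166 CPM with a median of 0.0419 in footprints, against 30.0 to 389 CPM with a median of 222 in mRNA (edgeR adjusted p = 0.00216). Only C1483Y replicate 1 among the footprint libraries had more than 9 counts. Scarna13, printed above, had 2 counts in 1 footprint library and none in the other 7, against 0 to 302 CPM with a median of 66.5 in mRNA (edgeR adjusted p = 0.0138). Scarna13 passed the filter through mRNA alone and had to be lower in footprints. Both calls were lost without footprint library C1483Y replicate 2 (adjusted p = 0.0666 for Scarna10 and 0.190 for Scarna13). Scarna3a and Scarna3b had medians of 0 in footprints, and 0 and 0.0201 CPM in mRNA. Scarna2 had a median of 92.8 CPM in footprints and 138 CPM in mRNA, with overlapping ranges.

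The annotated length of a member went with its assay. Over 87 members that reached 1 CPM in either assay and have a RefSeq length, Spearman's rho between length and the log2 ratio of mean levels was -0.40. The points share the same 17 libraries, and both assays select fragments by size, so rho is given as a description. Of 53 members under 100 nt, 33 had the higher mean in footprints, with a median log2 ratio of 1.50. Of 34 members of 100 nt or more, 10 had the higher mean in footprints, with a median of -2.20. All 6 members of 190 nt or more had the higher mean CPM in mRNA, as did all 5 without Rmrp, for which no direction is given. Within the classes rho was -0.21 over 50 box C/D snoRNAs and -0.19 over 24 box H/ACA snoRNAs. Of the 13 members called higher, the 12 with a RefSeq length spanned 53 to 184 nt with a median of 62.5. Those called lower spanned 71 to 325 nt with a median of 221. Rn45s, which was called higher, has no RefSeq length and enters none of these comparisons of length.

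**Figure D4:**
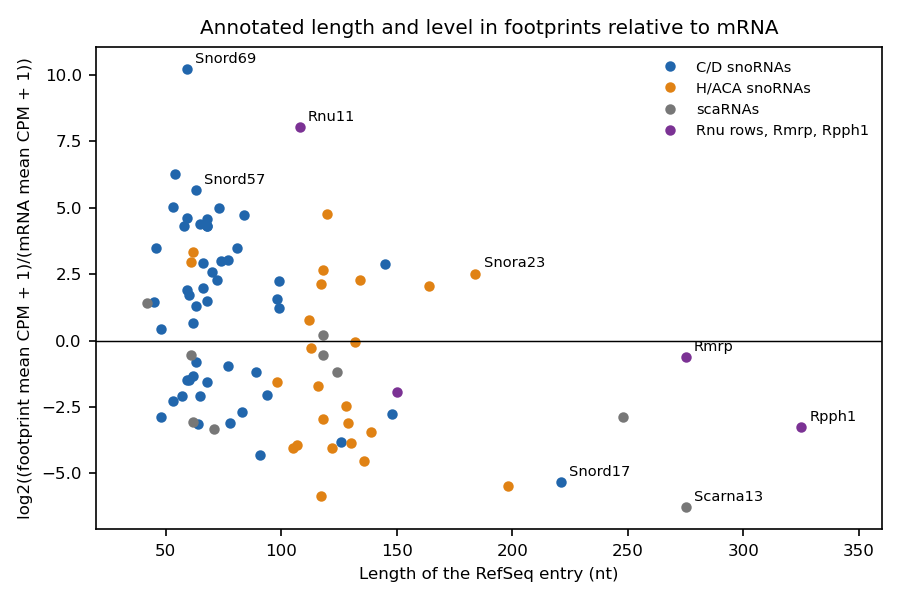
Annotated RefSeq length in nt against the log2 ratio of mean footprint to mean mRNA level (1 CPM added to each), with 1 point for each of 87 members, coloured by class. Rn45s has no RefSeq length and is not drawn. Members under 100 nt lie on both sides of 0 with 33 of 53 above it, and the 6 members of 190 nt or more all lie below it, 5 of them without Rmrp, for which no direction is given.

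The second comparison asks whether the MTOR constructs changed any member. In footprints, none of the 51 members tested passed in C1483Y against WT, L2427P against WT or L2427P against C1483Y (edgeR; 0% of 10315 genes called in each). At an unadjusted p under 0.05 there were 4, 6 and 4 members (4.4%, 3.76% and 1.27% of all genes), and DESeq2 called 4, 3 and 2 (7.77%, 2.85% and 4.89%). In mRNA, none of the 48 members tested passed in the same 3 contrasts (edgeR; 0%, 0% and 0.0105% of 9558 genes called). There the unadjusted p was under 0.05 for 3, 2 and 6 members (1.59%, 2.42% and 3.72%), and DESeq2 called 6, 3 and 8 (1.8%, 3.01% and 5.25%). The interaction of assay and construct called none of 83 members for C1483Y or L2427P against WT (edgeR; 0% of 11902 genes). For it, 15 and 8 members had an unadjusted p under 0.05 (5.46% and 8.23%), and DESeq2 called 16 and 8 (11.2% and 9.33%). The C1483Y footprints had 2 libraries. Without replicate 2, a fit of 68 members in which the lone C1483Y library is assumed to vary like the other groups, Snora61 and Snord12 passed, lower in C1483Y against WT and higher in L2427P against C1483Y, so these passes rest on 1 library.

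Snord57 had the lowest unadjusted p of the members in footprints. It had 6940 and 5442 CPM in C1483Y, 2943, 1524 and 1033 CPM in L2427P, and 4624, 2307 and 3496 CPM in WT. Both C1483Y libraries were above all others, and the L2427P libraries overlapped those of WT. L2427P against C1483Y gave a log2 fold change of -1.82 with a standard error of 0.46 (edgeR adjusted p = 0.925, unadjusted p = 0.00267). Over 15 other settings the adjusted p ranged from 3.96e-17 to 1.00, and the change passed in 6 of them, among them the fits without footprint library L2427P replicate 1 (1.13e-13) and L2427P replicate 3 (5.33e-05), and the fit without C1483Y replicate 2 (0.000104), which leaves 1 C1483Y library and takes the spread from the other groups. L2427P against WT passed without footprint library L2427P replicate 1 as well. Box C/D snoRNAs summed to 8675 and 10628 CPM in the C1483Y footprints, 3279 to 5092 CPM in L2427P and 5647 to 7941 CPM in WT, and without Snord57 the sums were 3233 and 3688, 1628 to 3568 and 3272 to 3339 CPM, which overlapped between all constructs. These sums are a description, with no test. In mRNA, Rpph1 had the lowest unadjusted p of the members. It had 24765, 18018 and 53981 CPM in L2427P and 15693, 16227 and 18779 CPM in C1483Y, which overlapped, with a log2 fold change of 0.64 and a standard error of 0.14 for L2427P against C1483Y (edgeR adjusted p = 0.0750). The highest Rpph1 value is that of L2427P replicate 3. The change passed without mRNA library WT replicate 1 (4.26e-05), WT replicate 3 (0.0255) or L2427P replicate 2 (3.41e-09), and the log2 fold change was 0.47 without L2427P replicate 3 (adjusted p = 1.00). Rpph1 mRNA also passed in C1483Y against WT, as lower, without mRNA library WT replicate 1 or L2427P replicate 2.

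**Figure D5:**
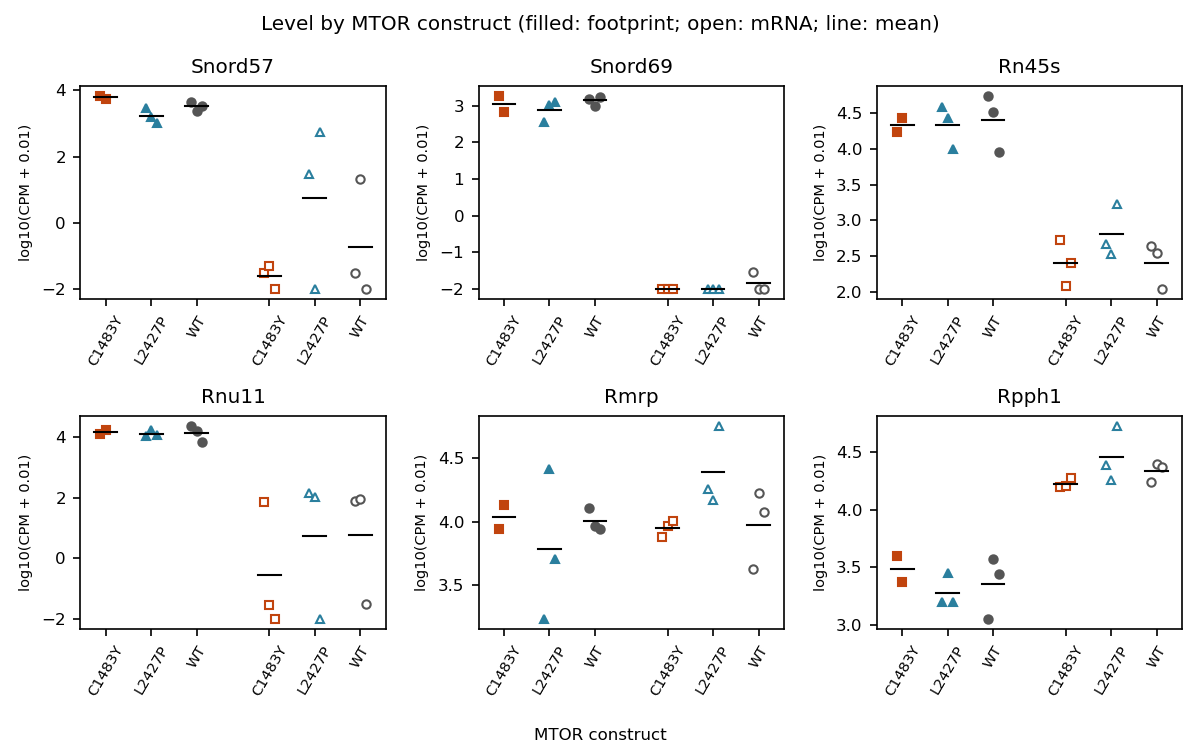
Level of 6 members as log10(CPM + 0.01) for the constructs C1483Y, L2427P and WT, with filled symbols for footprints, open symbols for mRNA, 1 symbol a library and a line at the mean of the log values. Snord57 footprints are highest in C1483Y, and none of the 6 members passed the edgeR test between constructs.

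Proteins that work with these RNAs were looked at by the same footprint to mRNA ratio. None of 11 box C/D particle proteins, 7 box H/ACA particle proteins, 9 Cajal body proteins, 11 RNase P and MRP proteins and 7 proteins of 7SK and P-TEFb passed (edgeR adjusted p below 0.05), where 2.2% of all genes tested were higher and 0.79% lower. Of 20 core snRNP proteins Snrnp70, the U1 protein, was higher in footprints, at 585 ± 247 CPM in footprints (SD, n = 8) and 120 ± 79.9 CPM in mRNA (SD, n = 9) (edgeR adjusted p = 0.00326). Of 21 genes of ribosomal RNA transcription and processing, Ncl and Npm1, the nucleolar proteins nucleolin and nucleophosmin, were higher in footprints. Ncl had 529 ± 222 CPM in footprints and 113 ± 124 CPM in mRNA, and Npm1 had 877 ± 253 CPM in footprints and 324 ± 194 CPM in mRNA (SD, n = 8 and n = 9; edgeR adjusted p = 0.00646 and 0.00493). Of the 14 hosts of called members, all tested, 0 were higher and 2 lower in footprints, beside 4 higher and 16 lower among the 76 hosts tested of all members. The 2 were the hosts of Snora3 and Snora65, which themselves were higher. Rpl27a had 219 ± 128 CPM in footprints and 1373 ± 202 CPM in mRNA, and Rpl12 had 60.9 ± 55.7 CPM in footprints and 961 ± 287 CPM in mRNA (SD, n = 8 and n = 9; edgeR adjusted p = 0.000272 and 2.77e-06). Structural RNAs outside the symbol rule, such as the telomerase RNA Terc and the vault RNA Vaultrc5, gave 5 tested rows and no call.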

How the data were processed

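Footprint and mRNA libraries were made with RNase I or heat fragmentation and the same small RNA kit, per the labels' protocols, which mention no molecular identifiers. Per the submitters' processing notes, the build was mm10 and the tools HTSeq, TopHat2 2.1.1 and Bowtie 1.1.2. The sources used here do not give the annotation, the strand setting or the treatment of ambiguous reads. For 17 libraries the authors deposited raw counts by gene symbol. Footprint library C1483Y replicate 3 was deposited with 165 values that are not whole, is treated as estimated counts, is displaced against the names, and was left out. Gene names turned into dates (27) and summary lines stayed out of library sizes, which were sums over named genes. Counts were tested with edgeR 4.0.16 in R 4.3.3 (quasi-likelihood, TMM factors, filterByExpr minimum count of 10, Benjamini-Hochberg at 0.05), with all 17 libraries for footprint against mRNA and 8 or 9 libraries within an assay. Standard errors are the log2 change over the square root of F. Intervals and floors (3 counts a library) cover counting error only. For single members with a group at 0, fitted ratios are given only where changes of sign between settings are described. Host spans, lengths and hairpins come from RefSeq (GRCm38.p6), which had 124 of the 127 members. Named are Rn45s, Rmrp, Rpph1, the Rnu and Scarna rows of at least 1 CPM, the 10 most abundant snoRNAs of each assay and the 5 largest calls each way. Members and lists were chosen with earlier results of these data known. Alternatives were other scalings, filters, DESeq2 1.42.0, blocks, each library left out, and the values of the displaced library.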

Additional observations from a re-analysis of the deposited data

Results flagged for a closer look

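The footprint library C1483Y replicate 3 was left out of the reported comparisons, because its values are displaced against the gene names, and entered only the alternative fits that name it. Its member rows nonetheless held counts, which summed to 0.551% of the counts on named genes, above the limit that a count of 0 allows. No member is described from them.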

How the results depend on the processing

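Over 34 named members and 26 alternatives, 819 of 884 log2 ratios of footprint to mRNA kept their direction and their side of the threshold, 22 lost and 11 gained the call, and 32 changed sign, none of them for a member called in the reported fit. Rn45s, Rpph1, Snora61, Snord17 and Snord69 passed under all 26. The cause of the changes below was not tested. With 1428 of 2159 member values at 0, most members have few libraries behind a ratio.

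Averaged over the constructs, DESeq2 called 24 members higher and 14 lower (20.6% of all genes, against 2.99% by edgeR). It called 19 and 9 in C1483Y, 9 and 7 in L2427P, and 11 and 13 in WT. The share of all genes called by DESeq2 within single constructs was not taken. These counts therefore cannot be read as a trait of the members. DESeq2 called 12 and 4 for the interaction with C1483Y (11.2% of all genes) and 6 and 2 for that with L2427P (9.33%). In footprints it called 3 higher and 1 lower in C1483Y against WT, 3 higher in L2427P against WT and 2 higher in L2427P against C1483Y. In mRNA it called 1 and 5, 2 and 1, and 8 higher, in the same contrasts.

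Over the 2000 most abundant genes, deviations of same-numbered libraries from their group means correlated by -0.079 to 0.059 between footprint and mRNA of a construct. The correlation was -0.040 to 0.077 between footprints and -0.039 to 0.0020 between mRNA libraries. No pairing by number was seen, but with group means of so few libraries the check cannot exclude one. With the replicate block, 1 member was higher and 0 lower in C1483Y, 1 was lower in WT, and 1 was lower in footprints for both L2427P against WT and L2427P against C1483Y. With a block for each library pair, the replicate block within construct, 6 members were higher and 3 lower on average, 1 was higher in C1483Y, and 1 was higher and 1 lower in WT. Snord57 then had an adjusted p of 0.0543 with the replicate block and 0.395 with the pair block, by edgeR.

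With RLE size factors 2 members were lower in L2427P, and 1 was lower in footprints for L2427P against C1483Y, as also without the filter on low counts. With library sizes without the members 0 were lower in C1483Y and 2 were lower in L2427P. With TMM factors set within each assay 2 were lower in L2427P. That scaling moved the median log2 ratio of all genes by -0.38, and library sizes without the members by -0.30. With footprint library C1483Y replicate 3 as deposited, 4 members were higher and 0 lower in C1483Y, 2 and 0 in L2427P, and 0 lower in WT. The members' share was also taken of all aligned reads in a file, those outside genes or without a unique alignment included. It was 4.05% in the 7 footprint libraries used that have a summary and 1.06% in mRNA. Of the counts on named genes in all 8 footprint libraries, members held 3.73% without Rn45s, against 6.45% with it.

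A fit that leaves out a C1483Y footprint library has 1 library in that group, which is then assumed to vary like the other groups. Leaving out each library in turn gave 9 to 13 members higher and 2 to 5 lower on average, 1 to 5 and 0 to 1 in C1483Y, 1 to 2 and 1 to 3 in L2427P, and 1 to 4 and 1 to 3 in WT. In footprints 0 to 2 were lower in C1483Y against WT, 0 to 1 lower in L2427P against WT, and 0 to 2 higher and 0 to 1 lower in L2427P against C1483Y. In mRNA 0 to 1 were lower in C1483Y against WT and 0 to 1 higher in L2427P against C1483Y. The summed share ranged from 5.88% to 6.89% in footprints and from 3.39% to 4.60% in mRNA.

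Among the ratios that changed sign, those of Scarna17, Scarna3a, Scarna8 and Scarna9 have a group at 0 in which the fitted value depends on the prior count. The sign of Rmrp turned to -0.33 for library sizes without the members, -0.13 without the filter, -0.0080 with the replicate block, -0.23 with the pair block, -0.33 with TMM within each assay and -0.094 with the displaced library. Scarna17 turned to 2.83 by DESeq2 and 2.25 with the pair block. Scarna3b turned to -1.55 with the replicate block, -1.49 with the pair block and -0.028 with TMM within each assay. Scarna9 turned to 1.64 with the displaced library. With each library left out in turn, the log2 ratio ranged from -0.48 to 0.26 for Rmrp, from -4.06 to 2.36 for Scarna17, from -3.07 to 0.35 for Scarna2, from -0.65 to 2.99 for Scarna3a, from -4.10 to 3.00 for Scarna3b, from -8.27 to 0.41 for Scarna6, from -4.13 to 3.46 for Scarna8, from -4.72 to 1.00 for Scarna9, from -0.081 to 5.97 for Snord110 and from -2.07 to 4.98 for Snord12.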
